A study of Mus musculus with 6 samples.

Results

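The genes that write, maintain and remove DNA methylation were examined in metaphase II (MII) oocytes matured *in vitro* (IVM) or *in vivo* (IVO). The 10 members are Dnmt1, Uhrf1, Dnmt3a, Dnmt3b, Dnmt3l, Tet1, Tet2, Tet3, Dppa3 and Zfp57, chosen by gene symbol among the 53700 genes with Ensembl identifiers of the 60193 listed genes. All 10 were found, each with a single row. The samples were 3 IVM and 3 IVO pools from female ICR mice, an outbred stock, aged 42 to 45 weeks, and by the Methods each pool held 20 oocytes from 3 mice. All donors had been injected with 5 IU of PMSG. For IVM, oocytes still at the germinal vesicle stage were stripped of cumulus cells with a pipette 46 h later and cultured in M16 medium for 12 h. For IVO, the mice also received 5 IU of hCG, and ovulated oocytes were taken from the oviduct 14 h later and freed of cumulus cells with hyaluronidase. The collection route, the hormone and the way cumulus cells were removed thus differed together between the groups and cannot be told apart. In addition, each sample is a pool of oocytes, so fewer cells of a type and less RNA per cell cannot be told apart.

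DNA methylation in the female germ line is laid down during oocyte growth. DNMT3A, with its catalytically inactive partner DNMT3L, places new methyl groups on cytosines, while DNMT1 copies existing methylation onto newly made strands after UHRF1 has bound the half-methylated site. The TET enzymes oxidise methylated cytosine as a step of its removal, and TET3 is the family member best known for acting on the paternal genome in the zygote. DPPA3 (also called Stella) is a maternal protein that keeps UHRF1 in check in the oocyte and guards the maternal genome after fertilization, and ZFP57 is a KRAB zinc finger protein that holds methylation at imprinted regions.

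The oocytes were sequenced as SMART-Seq v4 libraries, a kit that starts cDNA from the poly(A) tail, and the values are FPKM, that is, the fragments on a gene divided by its transcript length and by the size of the library. Depth, read from the step that a single fragment makes in low FPKM values, was 16400000 to 19700000 fragments in IVM and 17900000 to 18400000 in IVO pools. The fragment length inferred together with depth was 210 to 220 bases in IVM and 250 to 270 bases in IVO pools. Its effect on the values was not tested. The summed FPKM ranged from 1826738 to 2111776 in IVM and from 1560813 to 1643682 in IVO pools. Of 12 oocyte markers (Zp1 among them), all were above the filter, and 7 were called lower and 0 higher in IVO by limma, with 0 higher also at an unadjusted p-value under 0.05. The summed FPKM of the list was 17268 to 20008 for IVM and 15837 to 18679 for IVO, a sum mostly made up by Oosp1 (mean FPKM 11670 and 13140). The median log2FC of the list was -1.18, and the zona pellucida gene Zp2 (log2FC -3.69), its partner Zp3 (-3.13) and the maternal-effect gene Nlrp5 (-1.99) were among those called lower. Of 15 cumulus and granulosa cell markers, 3 reached a mean of 1 FPKM, namely Fshr, Cyp19a1 and Nr5a2, and Amh was listed at 0 in all samples. The summed FPKM of this list was 62.3 to 64.8 for IVM and 44.3 to 54.0 for IVO, mostly made up by Fshr, Cyp19a1 and Nr5a2. Fshr (mean FPKM 11.06 in IVM and 11.74 in IVO) and Cyp19a1 (17.20 and 19.76) were not called. Nr5a2 was called lower in IVO, with a mean FPKM of 33.97 in IVM and 15.94 in IVO. With the median-ratio scaling explained below, its log2FC was -0.73 (adjusted p = 0.0632 from limma), which ends the call. Of the markers below the filter, Has2, Ptx3, Tnfaip6 and Fst were not tested. Their values were higher in every IVO pool than in any IVM pool. This held for 9.62% of the tested genes, but the share among genes below the filter was not counted. The mean FPKM in IVO was 0.86 against 0.11 in IVM for Fst, 0.30 against 0.0933 for Has2, 0.113 against 0.020 for Ptx3 and 0.427 against 0.0567 for Tnfaip6. Ptgs2, also below the filter, overlapped, at 0.04, 0.19 and 0.06 FPKM in IVM and 0.5, 0.16 and 0.42 in IVO pools. Inha, Inhba, Lhcgr, Cyp11a1, Star and Foxl2, below the filter too, had the higher mean in IVM, with overlapping groups. Of 7 blood cell markers, 1 passed the filter, and their summed FPKM was 1.49 to 2.72 in IVM and 1.88 to 7.89 in IVO pools. The part of these markers in the results below was not tested.

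Dnmt3l was the member with the clearest difference between the groups, and it is read from a locus that overlaps another gene. In the reference annotation it lies on chromosome 10 of GRCm39 from 77877781 to 77899456 on the plus strand (ENSMUSG00000000730), and 67 of its 3079 exonic bases are shared with exons of Aire on the opposite strand. RefSeq, on the GRCm38.p6 build, lists 3 starts of Dnmt3l. The table of promoter windows, each running from 250 bases before to 50 bases after a start, places the most upstream one wholly inside Aire, which spans chromosome 10 from 78030022 to 78043610 in that build. An oocyte promoter of Dnmt3l within Aire is known from earlier work. The 3 windows are printed from 5′ to 3′ on the plus strand with each CpG, the dinucleotide CG that DNMTs methylate, in capitals, because the first lies where the loci overlap. They cover chr10:78042037-78042336, chr10:78049592-78049891 and chr10:78055085-78055384.
Dnmt3l window 1, inside Aire: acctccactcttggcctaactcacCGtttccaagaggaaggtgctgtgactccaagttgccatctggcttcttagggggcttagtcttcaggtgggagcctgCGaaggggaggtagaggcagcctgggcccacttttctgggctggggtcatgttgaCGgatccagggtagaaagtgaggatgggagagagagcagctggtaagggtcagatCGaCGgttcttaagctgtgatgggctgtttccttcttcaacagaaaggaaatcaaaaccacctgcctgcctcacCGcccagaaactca
Dnmt3l window 2: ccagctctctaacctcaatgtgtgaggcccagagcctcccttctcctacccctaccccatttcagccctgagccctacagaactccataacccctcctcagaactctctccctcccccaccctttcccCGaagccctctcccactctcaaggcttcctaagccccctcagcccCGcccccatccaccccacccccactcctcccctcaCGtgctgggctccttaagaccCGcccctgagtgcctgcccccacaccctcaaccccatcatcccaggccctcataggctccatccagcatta
Dnmt3l window 3: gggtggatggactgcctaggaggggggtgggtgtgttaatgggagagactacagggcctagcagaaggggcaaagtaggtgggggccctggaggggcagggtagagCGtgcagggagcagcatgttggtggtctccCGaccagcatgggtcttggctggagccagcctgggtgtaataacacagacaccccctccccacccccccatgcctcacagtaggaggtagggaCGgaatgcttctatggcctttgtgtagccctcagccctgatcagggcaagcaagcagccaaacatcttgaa
They hold 6, 4 and 3 CpG, where the median over the 32851 windows of the table is 7 and the quartiles are 3 and 20. At least 1 CpG occurs in 94.6% of these windows.

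For Dnmt1, the only other member that passed the test, RefSeq also lists 3 starts, and the first and the last are printed because they stand at opposite ends of the CpG scale. Both are written 5′ to 3′ on the minus strand of GRCm38.p6, at chr9:20959839-20960138 and chr9:20952574-20952873, again with CpG in capitals.
Dnmt1 window 1, the most upstream: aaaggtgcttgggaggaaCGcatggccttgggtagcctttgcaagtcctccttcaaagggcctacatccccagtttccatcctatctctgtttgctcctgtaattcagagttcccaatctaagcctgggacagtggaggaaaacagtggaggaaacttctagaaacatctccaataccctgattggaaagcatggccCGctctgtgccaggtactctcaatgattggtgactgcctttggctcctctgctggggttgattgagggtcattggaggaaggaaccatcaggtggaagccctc
Dnmt1 window 3, the most downstream: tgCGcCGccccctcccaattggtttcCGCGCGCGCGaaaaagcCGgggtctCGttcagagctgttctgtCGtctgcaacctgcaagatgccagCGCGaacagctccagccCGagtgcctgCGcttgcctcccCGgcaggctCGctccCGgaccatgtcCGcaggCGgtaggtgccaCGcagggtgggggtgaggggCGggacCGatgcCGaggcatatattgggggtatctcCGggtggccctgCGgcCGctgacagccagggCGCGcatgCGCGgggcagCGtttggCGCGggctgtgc
The upstream window holds 2 CpG, more than 14.1% of all windows, and the downstream window holds 33, more than 91.4% of them. The window between them holds 12. Of the 10 members, 9 have a window in the table, 18 windows in all. Of the other members with a window, Zfp57 has 4, 6 and 9 CpG in its 3 windows. Dnmt3a has 46, 47 and 18, and Uhrf1 has 12 and 33. The single windows of Tet2, Dnmt3b, Tet3 and Tet1 hold 57, 30, 22 and 17. The FPKM are summed over all transcripts of a gene, so the starts cannot be told apart in these values.

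The members spanned more than 3 orders of magnitude in level. Dppa3 was one of the most abundant transcripts of these oocytes, with the rank 18 by mean FPKM among the tested Ensembl genes, whereas Dnmt3b and Tet2 were close to the lower end. By mean FPKM the order in IVM pools was Dppa3, Dnmt1, Zfp57, Tet1, Dnmt3a, Tet3, Uhrf1, Dnmt3l, Tet2 and Dnmt3b. The replicate ranges of neighbours in this order overlapped except between Dppa3 and Dnmt1, between Tet1 and Dnmt3a, between Dnmt3a and Tet3 and between Dnmt3l and Tet2. In IVO pools the order was Dppa3, Zfp57, Tet1, Dnmt1, Tet3, Uhrf1, Dnmt3a, Dnmt3l, Tet2 and Dnmt3b. There the neighbours were apart between Dppa3 and Zfp57, between Dnmt1 and Tet3, between Tet3 and Uhrf1 and between Dnmt3a and Dnmt3l. Dnmt1 thus stood in position 2 in IVM and in position 4 in IVO pools, and Dnmt3a in position 5 and in position 7.

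**Figure D1:**
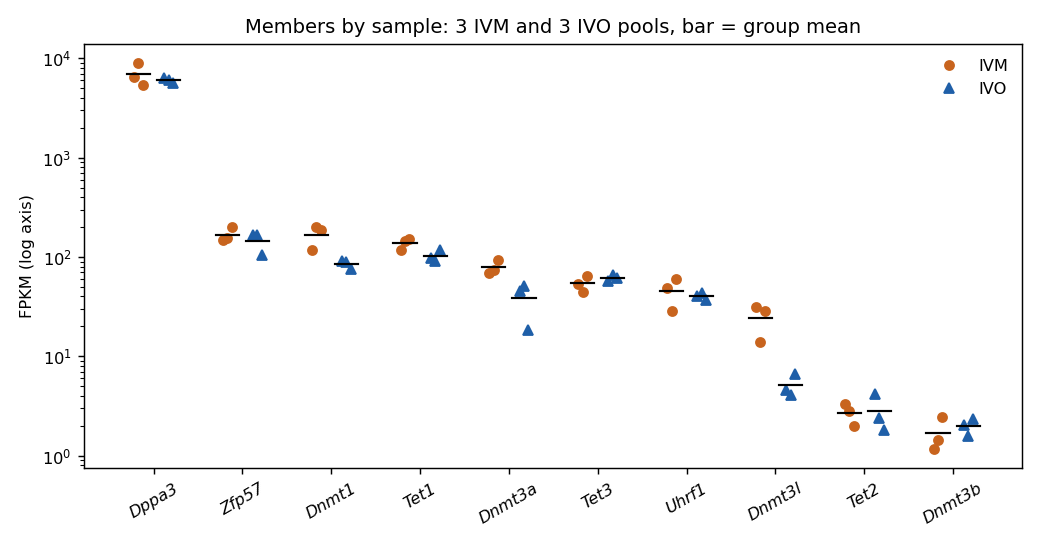
FPKM of each member on a log axis in the 3 IVM pools (circles) and the 3 IVO pools (triangles), with a bar at the group mean and genes ordered by their mean over all 6 samples. The 3 IVO values lie below the 3 IVM values in Dnmt1, Dnmt3a and Dnmt3l, as they do in 32.6% of all tested genes. Dppa3 lies at 5339 FPKM or more in every sample.

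Group differences (IVO minus IVM) were tested with limma on log2(FPKM + 1). The fit held the 18818 genes with a mean of 1 FPKM or more, and all 10 members were among them. A gene was called at a Benjamini-Hochberg adjusted p-value under 0.05 and was a DEG when its log2FC was also at least 1 in size. On this scale log2FC understates the change of low genes. Of the 10 members, 2 were called lower in IVO oocytes, Dnmt3l and Dnmt1, and 0 were called higher. Over all tested genes, 21.5% were called lower, 1.87% higher and 23.4% in either direction, so the share of members called lower, 20%, is near the background. At an unadjusted p-value under 0.05, limma gave 3 members lower and 0 higher. The median log2FC was -0.19 over the members and -0.30 over all tested genes. With median-ratio scaling, which divides each library by the median ratio of its genes to their mean, the median of all genes moved to -0.04, that of the members was 0.13, and 1 member, Dnmt3l, was called lower. Under that scaling 13% of all genes were called lower and 7.19% higher. Median-ratio values are therefore given beside those from the FPKM as deposited for the members and the tested genes named below.

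Dnmt3l was 0.209 times as abundant, by mean FPKM, in oocytes matured *in vivo* as in those matured *in vitro*. The IVM pools had 31.0, 13.9 and 28.4 FPKM, against 4.55, 4.10 and 6.69 FPKM for IVO. The second IVM pool was lowest of its group, and it was still above the highest IVO pool. The values rest on an estimated 392 to 789 fragments in IVM and 103 to 170 in IVO pools. The log2FC was -2.0 (standard error 0.34, 95% interval -2.81 to -1.20, adjusted p = 0.00786 from limma), and Dnmt3l was the only DEG among the members. With median-ratio scaling it was -1.71 (adjusted p = 0.0175). DEGs with lower values in IVO made up 17.9% of all tested genes, those with higher values 0.606%, and the log2FC of Dnmt3l stood at percentile 5.70 of all genes. The call was kept under all 18 alternative settings, with a log2FC from -2.35 to -1.52.

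Aire, the thymic transcription regulator whose gene overlaps Dnmt3l, differed in the same direction at lower levels. Its FPKM was 6.61, 2.55 and 6.66 in IVM and 0.58, 1.46 and 1.35 in IVO pools, so its second IVM pool was lowest too. Its log2FC was -1.5 (adjusted p = 0.0281 from limma), -1.27 with median-ratio scaling (adjusted p = 0.0483), and it remained called in 1 of 6 fits that each left out a sample, the one without the second IVM pool. The library kit does not mark strand, so reads of the shared exons cannot be told apart between Aire and Dnmt3l.

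The *de novo* methyltransferase Dnmt3a (chr12:3856007-3964443, GRCm39), the catalytic partner of DNMT3L, had lower values in every IVO pool but did not pass the test. Its FPKM was 68.2, 73.9 and 93.5 in IVM and 45.2, 51.4 and 18.4 in IVO pools. The groups did not overlap, which 32.6% of all tested genes also showed in this direction, and the third IVO pool stood well below the other two. The log2FC was -1.13 (95% interval -2.03 to -0.23, adjusted p = 0.0749 from limma), and -0.68 without the third IVO pool (adjusted p = 0.0942). With median-ratio scaling it was -0.81 (adjusted p = 0.156). Within each library, the ratio of Dnmt3l to Dnmt3a, which no library scaling changes, was 0.455, 0.188 and 0.303 in IVM and 0.101, 0.0798 and 0.364 in IVO pools. These ratios overlapped between the groups because of the third IVO pool, in which Dnmt3a was lowest. This pair and the other pairs of genes below were chosen after their values were seen. How often other pairs fail to overlap was not counted. Differences between libraries that depend on gene length do not cancel in such ratios. Dnmt3l and Dnmt3a are listed with lengths of 1657 and 8737 bases.

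Dnmt3b (chr2:153490861-153529650), the other *de novo* enzyme, was barely above the filter in both groups. Its FPKM was 1.16, 1.45 and 2.43 in IVM and 2.03, 1.56 and 2.35 in IVO pools, worth 65 to 160 fragments per sample. The values overlapped, with a log2FC of 0.17 (95% interval -0.48 to 0.82, adjusted p = 0.695 from limma) and 0.38 with median-ratio scaling (adjusted p = 0.319). Listed pseudogene copies, Dnmt3a-ps1, Dnmt3l-ps1 and Dppa3-ps, were at 0 in all 6 samples, and the rodent paralogue Dnmt3c did not exceed 0.34 FPKM.

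Dnmt1, the maintenance methyltransferase (chr9:20817945-20871184), was less abundant in IVO than in IVM oocytes. Its FPKM was 116, 198 and 188 in IVM and 91.7, 88.1 and 75.7 in IVO pools. The IVO values were below all IVM values, as in 32.6% of all tested genes, the first IVM pool being nearest to them. The log2FC was -0.93 (standard error 0.24, 95% interval -1.51 to -0.36, adjusted p = 0.0321 from limma), which is under the fold threshold for a DEG. With median-ratio scaling it was -0.61 (95% interval -1.20 to -0.02, adjusted p = 0.121), which ends the call. The call also ended when any sample other than the first IVM pool was left out, with adjusted p-values from 0.0666 to 0.0887 and a log2FC from -0.99 to -0.79, and with the replicate number as a factor (adjusted p = 0.0696).

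Uhrf1 (chr17:56610275-56630489), which brings DNMT1 to half-methylated DNA, showed no such difference. Its FPKM was 48.9, 28.8 and 60.2 in IVM and 40.4, 43.5 and 37.2 in IVO pools, and all 3 IVO pools fell within the IVM range. The log2FC was -0.12 (95% interval -0.79 to 0.55, adjusted p = 0.791 from limma) and 0.20 with median-ratio scaling. The ratio of Dnmt1 to Uhrf1 was 2.38, 6.89 and 3.12 in IVM and 2.27, 2.03 and 2.04 in IVO pools. The IVO libraries were below the IVM libraries in this ratio, by a narrow margin for the first IVM pool.

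**Figure D2:**
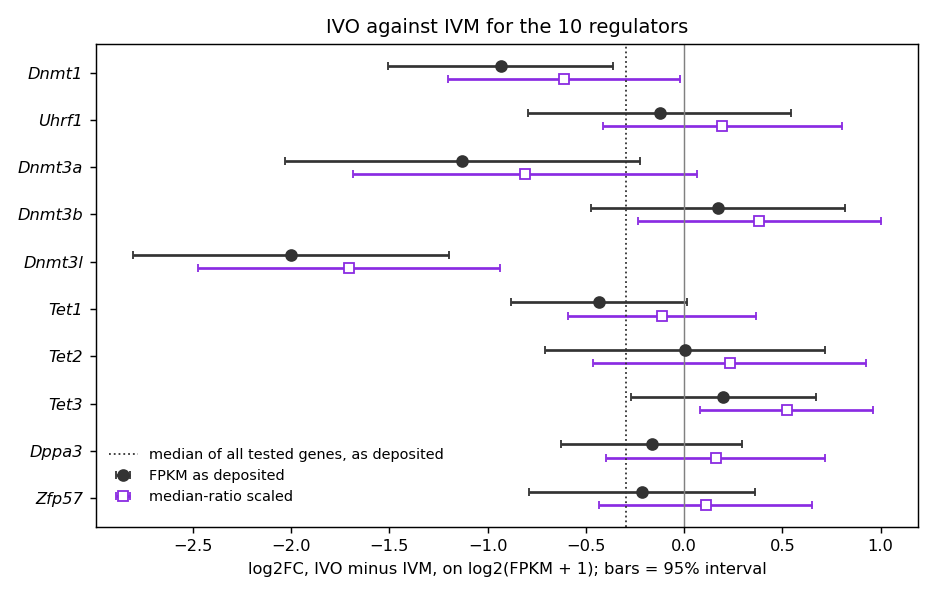
Log2FC of IVO minus IVM with its 95% interval for each member, from the FPKM as deposited (filled circles) and after median-ratio scaling (open squares), with a dotted line at the median of all tested genes. For Dnmt3l both intervals lie below -0.9, and the scaled values of Uhrf1, Dppa3 and Zfp57 lie on the other side of 0 from the deposited ones.

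Among the TET dioxygenases, Tet1 and Tet3 were well expressed and Tet2 was close to the filter. Tet1 (chr10:62640349-62744775) had an FPKM of 117, 146 and 153 in IVM and 97.2, 91.4 and 118 in IVO pools. The highest IVO value just passed the lowest IVM value. Its log2FC was -0.44 (95% interval -0.88 to 0.01, adjusted p = 0.145 from limma) and -0.11 with median-ratio scaling. Tet1 is listed with a length of 14369 bases, the longest of the members, and its log2FC was -0.20 once each library's length trend had been removed.

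Tet3 (chr6:83339355-83436066), the dioxygenase of the zygote, did not pass the test. Its FPKM was 53.5, 44.1 and 64.9 in IVM and 57.8, 65.5 and 61.9 in IVO pools, and the groups overlapped. The log2FC was 0.20 (95% interval -0.27 to 0.67, adjusted p = 0.518 from limma). It was 0.52 with median-ratio scaling (95% interval 0.08 to 0.96, adjusted p = 0.0883), and with quantile normalization alone it passed the test (0.69, adjusted p = 0.0441). Of the 16695 exonic bases of Tet3, 1512 are shared with exons of Bola3 on the opposite strand. Bola3, a mitochondrial iron-sulfur cluster factor, had an FPKM of 91.3 to 110.2 in IVM and 37.3 to 47.4 in IVO pools, and its log2FC was -1.24 (adjusted p = 0.00479 from limma) and -0.92 with median-ratio scaling (adjusted p = 0.0232). Reads of the shared bases cannot be assigned to a strand.

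Tet2 (chr3:133169436-133250900) had an FPKM of 3.28, 2.80 and 1.99 in IVM and 4.16, 2.37 and 1.81 in IVO pools. The ranges overlapped, and the log2FC was 0.00 (95% interval -0.71 to 0.72, adjusted p = 0.997 from limma) and 0.23 with median-ratio scaling (adjusted p = 0.593).

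The balance within the TET family was compared as shares, which do not depend on library scaling. Differences between libraries that depend on gene length do not cancel in shares. Tet1, Tet2 and Tet3 are listed with lengths of 14369, 9021 and 5944 bases. Once each library's length trend had been removed, the log2FC was -0.20 for Tet1 and 0.39 for Tet3. Whether gene length moved the shares was not tested. Tet1 took 67.4%, 75.6% and 69.5% of the summed FPKM of the 3 Tet genes in IVM and 61.1%, 57.4% and 64.9% in IVO pools. Tet3 took 30.8%, 22.9% and 29.6% in IVM and 36.3%, 41.1% and 34.1% in IVO pools. The IVO libraries thus lay below the IVM libraries in the Tet1 share and above them in the Tet3 share, a description without a test. Tet2 took 0.906% to 2.61%, so these shares nearly mirror each other, and the ratio of Tet3 to Tet1 restates them. Among single tested genes, 32.6% did not overlap in the lower and 9.62% in the higher direction. Shares within other gene families were not counted. Neither Tet1 nor Tet3 was called, as deposited or with median-ratio scaling. The ratio of Tet3 to Tet1 averaged 0.395 ± 0.0811 (SD, n = 3) over the IVM libraries, against 0.612 ± 0.0965 (SD, n = 3) over the IVO libraries.

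The 4 Dnmt genes together had 217, 288 and 312 FPKM in IVM and 143, 145 and 103 FPKM in IVO pools. The summed FPKM of the Tet genes was 174 to 220 in IVM and 159 to 181 in IVO pools. The Dnmt sums did not overlap between the groups, while the Tet sums did. Among single tested genes, 32.6% did not overlap in the direction of the Dnmt sums. Tet over Dnmt, a ratio taken within each library, was 0.803, 0.670 and 0.704 in IVM and 1.11, 1.10 and 1.76 in IVO pools. Thus the summed Tet FPKM was below the summed Dnmt FPKM in the 3 IVM libraries and above it in the 3 IVO libraries, a description without a test. The ratio of 1.76 is that of the third IVO pool, in which Dnmt3a was lowest. Dnmt1 and Dnmt3a, which made up most of the Dnmt sum, were called in 5 and 0 of the 18 alternative settings. Within the Dnmt family, the Dnmt1 share was 53.7% to 69.0% for IVM against 60.7% to 73.4% for IVO, and the Dnmt3l share 4.82% to 14.3% against 2.83% to 6.49%, both with overlapping ranges. The Dnmt3b share was the Dnmt share whose groups did not overlap, at 0.536%, 0.504% and 0.778% for IVM and 1.42%, 1.08% and 2.28% for IVO. The FPKM of Dnmt3b itself overlapped between the groups (adjusted p = 0.695 from limma). The Dnmt sum by which it is divided averaged 272.1 FPKM in IVM and 130.5 FPKM in IVO pools.

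**Figure D3:**
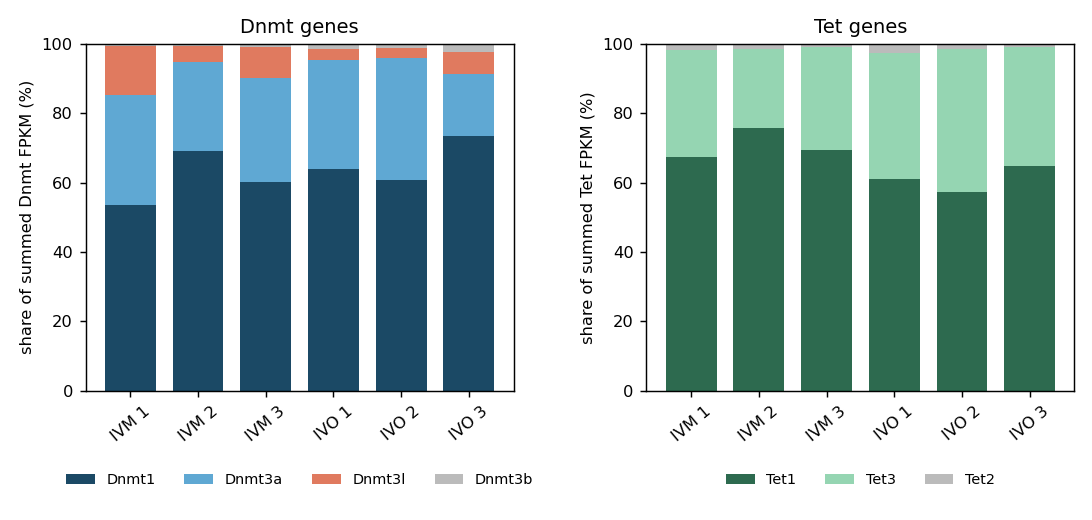
Share of the summed FPKM of the 4 Dnmt genes (left) and of the 3 Tet genes (right) taken by each member in each sample, with both axes from 0 to 100%. The Tet1 share is 67.4% to 75.6% in the IVM pools and 57.4% to 64.9% in the IVO pools.

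The maternal protectors of methylation did not pass the test. Dppa3 (chr6:122586548-122607237) had an FPKM of 6434, 8931 and 5339 in IVM and 6351, 6022 and 5675 in IVO pools. All IVO pools fell within the wider IVM range. The log2FC was -0.17 (95% interval -0.63 to 0.29, adjusted p = 0.584 from limma) and 0.16 with median-ratio scaling. Relative to Uhrf1, the protein it restrains, Dppa3 stood at a ratio of 132, 310 and 88.8 in IVM and 157, 138 and 153 in IVO pools, and these overlapped as well.

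Zfp57 (chr17:37298936-37326192) had an FPKM of 147, 155 and 199 in IVM and 167, 167 and 104 in IVO pools. The third IVO pool, in which Dnmt3a was also lowest, was below all others. The log2FC was -0.21 (95% interval -0.79 to 0.36, adjusted p = 0.574 from limma), 0.11 with median-ratio scaling, and 0.01 without the third IVO pool.

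**Figure D4:**
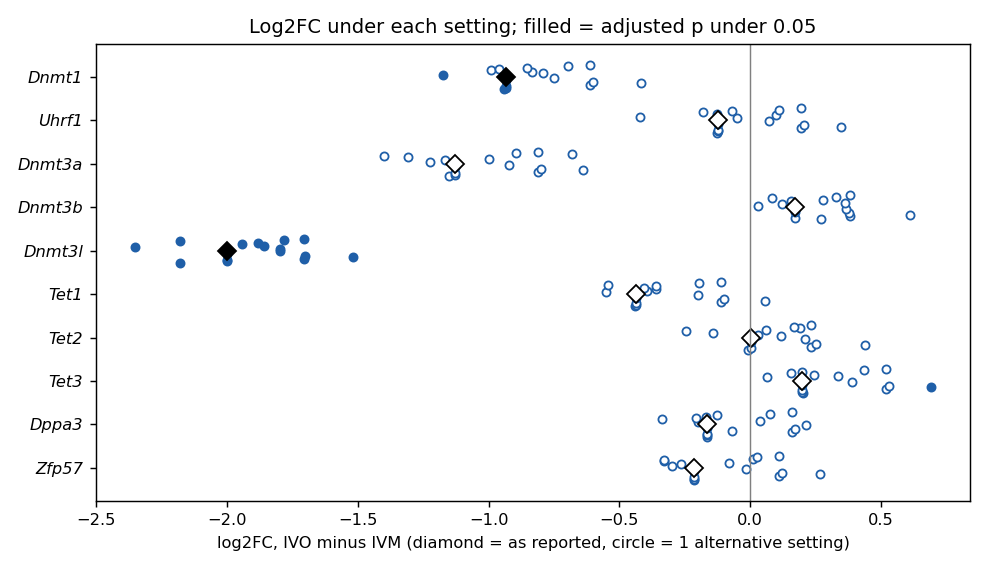
Log2FC of each member as reported (diamond) and under each alternative setting (circles), filled where the adjusted p-value was under 0.05. All Dnmt3l symbols are filled, 5 of the 18 circles of Dnmt1 are, and 1 circle of Tet3 is, that of quantile normalization.

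The partners of these enzymes were taken from 5 lists with 69 genes, of which 52 passed the filter. Of these, 7 (13.5%) were called lower and 1 (1.92%) higher in IVO, beside 21.5% and 1.87% of all tested genes. Their median log2FC was 0.005 against -0.30 for all genes. With median-ratio scaling 3 of the 52 were called lower and 9 higher, beside 13% and 7.19% of all tested genes. The division between the directions thus rests on the scaling.

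Among 12 tested partners of the methyltransferases, 3 were called lower in IVO. Usp7, a deubiquitinase that acts on UHRF1 and DNMT1, had an FPKM of 443, 444 and 346 in IVM and 214, 202 and 199 in IVO pools. Its log2FC was -0.99 (adjusted p = 0.00742 from limma), and it was called in all 6 fits that left out a sample. Dmap1, which binds DNMT1, had a log2FC of -1.20 (adjusted p = 0.0216) and lost its call without the first or the third IVM pool. Nsd1, a histone methyltransferase and the most abundant gene of the list, had an FPKM of 600 to 748 in IVM and 312 to 479 in IVO pools. Its log2FC was -0.86 (adjusted p = 0.0241), and its call held in 2 of these 6 fits, those without the third IVM or the third IVO pool. With median-ratio scaling the call of Nsd1 was lost (-0.54, adjusted p = 0.146), while Usp7 (-0.67, adjusted p = 0.0478) and Dmap1 (-0.91, adjusted p = 0.0486) were still called.

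Among 16 tested TET partners and base excision repair genes, 2 were called lower and 1 higher. Mbd4, a glycosylase that removes bases from mismatches at methylated sites, had an FPKM of 451, 364 and 232 in IVM and 92.6, 131 and 142 in IVO pools. Its log2FC was -1.48 (adjusted p = 0.0123 from limma), the most negative of the lists among the called genes, and it was called in all 6 fits that left out a sample. Ogt, the glycosyltransferase that binds TET proteins, had a log2FC of -0.73 (adjusted p = 0.0295), and Neil3, a glycosylase and by the mean over all 6 samples the most abundant gene of the list, had one of 0.49 (adjusted p = 0.0453). Both calls were lost in every fit that left out a sample. With median-ratio scaling the call of Ogt was lost (-0.42, adjusted p = 0.137), while Mbd4 (-1.15, adjusted p = 0.0471) and Neil3 (0.81, adjusted p = 0.0179) were called. Tdg, the glycosylase known for excising oxidised methylcytosine, did not exceed 0.11 FPKM in any sample, and Gadd45g was listed at 0 in all 6.

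Among 10 tested genes of imprint protection, 2 were called lower. Trim28, the corepressor that ZFP57 recruits, had an FPKM of 1288, 1170 and 1153 in IVM and 522, 652 and 896 in IVO pools. Its log2FC was -0.84 (adjusted p = 0.0302 from limma), and it was called only in the fit without the third IVO pool among the 6 that left out a sample. Cbx5, a heterochromatin protein, had a log2FC of -0.94 (adjusted p = 0.0173) and lost its call without the first IVM or the first IVO pool. With median-ratio scaling, neither Trim28 (-0.51, adjusted p = 0.170) nor Cbx5 (-0.62, adjusted p = 0.0887) was called.

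In the remaining lists limma called 0 genes. At an unadjusted p-value under 0.05 there were 0 among the methyl-CpG binding genes and 1 among the methyl donor genes, the folate carrier gene Slc19a1, which was lower in IVO. The log2FC of Slc19a1 was -0.585 (adjusted p = 0.116 from limma), and -0.368 with median-ratio scaling (adjusted p = 0.254). Of 9 methyl-CpG binding genes, 4 passed the filter, led by Mbd2 at 28.4 to 33.7 FPKM in IVM and 27.7 to 30.7 FPKM in IVO pools. Among 10 tested genes that supply the methyl donor, Mat2b, the regulatory subunit of methionine adenosyltransferase, was most abundant, with 1598 to 1711 FPKM in IVM and 1824 to 1982 FPKM in IVO pools. Its groups did not overlap, as in 9.62% of all genes in this direction, and its log2FC was 0.19 (adjusted p = 0.307 from limma). With median-ratio scaling it was 0.52 (adjusted p = 0.0490), and Mat2b was called higher. Under that scaling the log2FC of Mbd2 was 0.26 (adjusted p = 0.285).

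**Figure D5:**
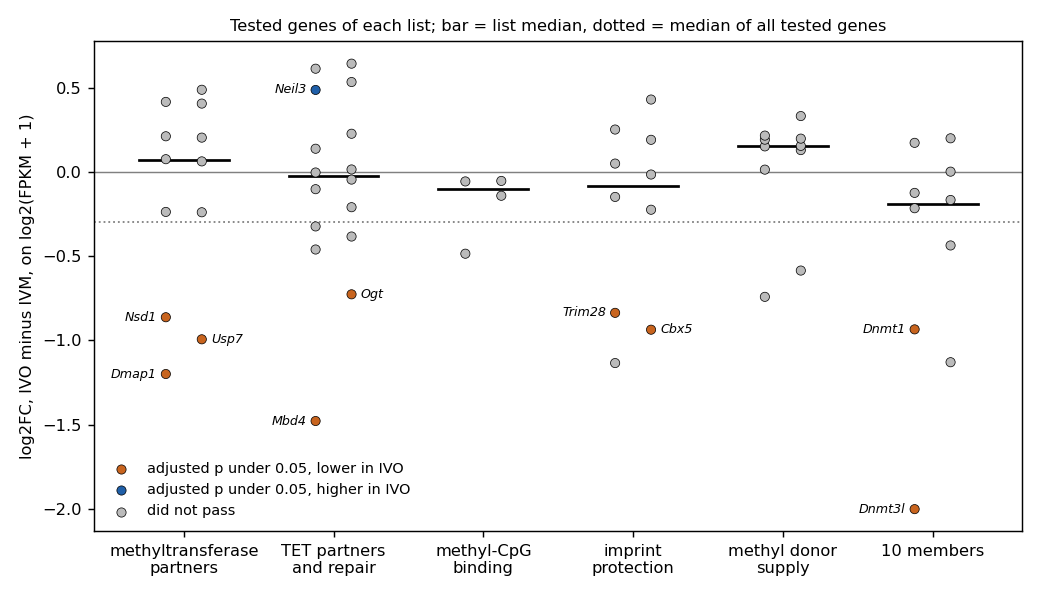
Log2FC of IVO minus IVM for the tested genes of the 5 related lists and for the 10 members, with a bar at each list's median and a dotted line at the median of all tested genes. Called genes are named, 7 related genes and 2 members lower and Neil3 higher in IVO.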

How the data were processed

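RNA from 6 pools of MII oocytes, 3 IVM and 3 IVO, was sequenced by the authors. According to the Methods and the submitters' processing notes, reads were filtered with SeqPrep and Sickle, aligned to GRCm39 with HISAT2 2.1.0 and quantified with RSEM 1.3.3. The authors deposited FPKM per gene and sample, with a gene length in bases and the authors' mean FPKM per group, which was not used. The authors tested counts with DESeq2 1.24.0, whereas limma was run here on FPKM.

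Groups came from the sample titles. In R 4.3.3 with limma 3.58.1, log2(FPKM + 1) was fitted with the group alone (lmFit, eBayes with trend), for genes with a mean of at least 1 FPKM, and checked on simulated data. P-values are two-sided and Benjamini-Hochberg adjusted over all 18818 genes. They measure the spread between pools. Depth was inferred from genes of 500 to 2000 bases with 1 transcript, where 73.3% to 74.5% of values worth at most 5.5 fragments lay within 0.1 of a whole number. For 1 kilobase, 3 fragments are worth 0.195 to 0.232 FPKM, counting error only.

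The members and lists were chosen with earlier results of these data known. The text names all members and, per list, the gene with the highest mean and up to 3 called genes with the smallest p, and genes at or near 0. Aire, Bola3, Slc19a1, Tdg and the marker genes given by name were chosen after their values were seen. Alternatives covered pseudocount, filter, scaling, variance trend, replicate number, gene length, Ensembl genes only and leaving out each sample. Coordinates are those of GENCODE M39 (GRCm39), and promoter windows those of RefSeq (GRCm38.p6). Python 3.11.15, pandas 2.3.3 and numpy 2.4.6 were used.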

Additional observations from a re-analysis of the deposited data

How the results depend on the processing

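Members called lower in IVO numbered 2 as reported and 1, Dnmt3l, with no filter, quantile normalization, median-ratio scaling, the same summed FPKM, the length trend removed or the replicate block. Leaving out each sample in turn gave 1 to 2. Members called higher numbered 0, and 1, Tet3, with quantile normalization. Added after seeing the data, Ensembl genes only with median-ratio scaling, and median-ratio scaling with the replicate block, also gave 1 member lower. Dnmt3l was called in all 18 alternatives and Dnmt3a in 0, with adjusted p-values for Dnmt3a from 0.0594 to 0.255.

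All calls numbered 4401 as reported and 2869 with Ensembl genes only, where fewer genes are tested. They numbered 2808 with Ensembl genes only and median-ratio scaling, 1210 with median-ratio scaling and the replicate block, and 2732 (without the first IVM pool) to 3654 (without the third IVO pool) when a sample was left out, with 2854 without the second IVO pool. Of the calls, 92.0% were lower in IVO as deposited, 64.4% with median-ratio scaling, 42.0% with quantile normalization, 70.0% at the same summed FPKM and 58.2% with the length trend removed. Related genes called lower numbered 7 as reported, 3 with median-ratio scaling, the replicate block, the length trend removed, or Ensembl genes only with median-ratio scaling, 2 with quantile normalization or the same summed FPKM, and 0 with median-ratio scaling and the replicate block. Those called higher numbered 1 as reported, 9 with median-ratio scaling, 12 with quantile normalization, 7 at the same summed FPKM or with Ensembl genes only and median-ratio scaling, 6 with the length trend removed, and 0 in both block fits. Without 1 sample they were 3 to 6 lower and 0 higher. The causes were not tested.

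The log2FC of 5 members that were not called changed sign. With median-ratio scaling, with or without the replicate block, Uhrf1 was at 0.195, Dppa3 at 0.1597 and Zfp57 at 0.1093. With quantile normalization Uhrf1 was at 0.3477, Tet1 at 0.0587 and Zfp57 at 0.2672. At the same summed FPKM Uhrf1 was at 0.2056, Dppa3 at 0.1717 and Zfp57 at 0.1212. With the length trend removed Uhrf1 was at 0.0718 and Dppa3 at 0.213. With Ensembl genes only and median-ratio scaling Uhrf1 was at 0.112, Dppa3 at 0.0745 and Zfp57 at 0.0247. Tet2 was at -0.0092 with a pseudocount of 0.1. When a sample was left out, Uhrf1 ranged from -0.4206 to 0.0979, Tet2 from -0.2463 to 0.1921, Dppa3 from -0.3349 to 0.0362 and Zfp57 from -0.3290 to 0.0130.

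The labels do not say whether samples with the same replicate number belong together. Deviations of same-numbered samples from their group means correlated at -0.062, -0.018 and -0.107 over genes. Those of differently numbered samples correlated at -0.023 to 0.081. These values cannot show how the pools were collected. With the replicate block 3145 genes were called. Dnmt3b and Tet2, near 1 to 4 FPKM, could not be tested at a mean of at least 5 FPKM. The inferred depth is an estimate, and FPKM carry no absolute RNA amount per oocyte.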
